A study of Mus musculus with 30 samples.

Results

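Hypoxia-high and hypoxia-low are names for the 10 tumours with the highest and the 10 with the lowest hypoxia score among 30 mouse mammary tumours, so the comparison uses 20 of the 30. The score of a tumour was the mean of the standardised log2(RPKM + 1) values of 8 genes, Car9, Vegfa, Slc2a1, Bnip3, Ndrg1, Adm, Egln3 and Pdk1. RPKM is a read count corrected for the length of the transcript and the size of the library. The tumours were thus chosen by the measured RPKM values of these 8 genes, and not by an oxygen measurement or a treatment. The 8 genes are described and not tested for a difference, and all other genes were compared between the groups.

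All 30 tumours were induced by PyMT, the polyoma middle T antigen, a viral oncogene that drives mammary tumours. The animals came from a single backcross design, ((MOLF x PyMT) x FVB), in which MOLF is a wild-derived strain and FVB an inbred one, so hypoxia-high and hypoxia-low animals share 1 labelled genotype. Neither group has a labelled treatment, and which MOLF segments an animal inherited is not labelled. Each animal gave 1 poly-A selected library. Age, tumour stage, tumour size, the site of sampling and the promoter of the PyMT transgene are not in the labels.

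Cells that lack oxygen keep the alpha subunits of the hypoxia-inducible factors (HIF), because the prolyl hydroxylases that mark these subunits for destruction by the Vhl complex need oxygen. HIF dimers bind short DNA motifs with the core ACGTG or GCGTG and raise the transcription of genes for glucose uptake, glycolysis, lactate export, pH balance and vessel growth, and of Egln1 and Egln3, which encode prolyl hydroxylases of the same loop. In solid tumours such genes are used as a readout of poorly perfused regions.

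The epithelial genes of the labelled tissue were abundant in both groups. The luminal keratin Krt18 was at 402, 591 and 688 RPKM (lowest, median and highest tumour) in hypoxia-high tumours and at 326, 479 and 765 RPKM in hypoxia-low tumours. Epcam, an epithelial surface protein, was at 352, 433 and 538 RPKM in hypoxia-high tumours and at 362, 430 and 509 RPKM in hypoxia-low tumours. The spacing of the lowest RPKM values gave an estimate of library depth, 116.6 to 194.6 M reads in 14 deep libraries and 42.6 to 62 M reads in 16 shallow ones. Hypoxia-high tumours had 5 deep and 5 shallow libraries and hypoxia-low tumours had 5 of each. Mean insert size was 243 ± 19.3 bases in hypoxia-high and 250 ± 18.8 bases in hypoxia-low libraries (SD, n = 10 each).

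The promoters of 3 genes that differed between the groups and of 1 score gene are shown because they carry the core ACGTG. They are RefSeq windows of 300 bases on GRCm38.p6, read 5′ to 3′ along the gene's own strand, and capitals mark ACGTG or its reverse complement. Slc16a3 is at chr11:120948817-120949116 on the plus strand, Pgam1 at chr19:41911621-41911920 on the plus strand, Ankrd37 at chr8:45999801-46000100 on the minus strand and Car9 at chr4:43506776-43507075 on the plus strand.
Slc16a3: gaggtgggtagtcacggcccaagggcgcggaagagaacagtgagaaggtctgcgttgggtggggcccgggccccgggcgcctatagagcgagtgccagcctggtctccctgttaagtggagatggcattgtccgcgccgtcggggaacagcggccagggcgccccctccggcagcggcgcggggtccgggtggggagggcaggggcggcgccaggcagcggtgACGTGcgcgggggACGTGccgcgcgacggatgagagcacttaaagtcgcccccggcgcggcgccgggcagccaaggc
Pgam1: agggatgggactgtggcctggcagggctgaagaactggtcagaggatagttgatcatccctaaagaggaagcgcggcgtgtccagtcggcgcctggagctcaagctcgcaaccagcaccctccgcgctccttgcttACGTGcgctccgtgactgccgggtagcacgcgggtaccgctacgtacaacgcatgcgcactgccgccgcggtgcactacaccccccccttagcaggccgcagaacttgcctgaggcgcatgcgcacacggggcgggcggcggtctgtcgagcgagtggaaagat
Ankrd37: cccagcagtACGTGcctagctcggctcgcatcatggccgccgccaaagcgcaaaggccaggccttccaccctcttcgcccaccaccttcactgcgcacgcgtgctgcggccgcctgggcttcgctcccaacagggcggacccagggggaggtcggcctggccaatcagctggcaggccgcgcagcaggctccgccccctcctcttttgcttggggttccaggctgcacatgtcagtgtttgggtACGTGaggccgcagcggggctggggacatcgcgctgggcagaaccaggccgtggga
Car9: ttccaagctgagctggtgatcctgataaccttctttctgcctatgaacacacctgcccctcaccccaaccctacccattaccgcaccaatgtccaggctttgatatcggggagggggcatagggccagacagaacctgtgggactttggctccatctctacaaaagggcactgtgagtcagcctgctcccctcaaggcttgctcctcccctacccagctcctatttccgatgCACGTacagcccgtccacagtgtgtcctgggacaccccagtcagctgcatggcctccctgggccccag

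The windows of Slc16a3 and Ankrd37 hold the core 2 times each, and those of Pgam1 and Car9 hold it 1 time each. Of the 10 genes called between the groups, 8 had a window, and 7 of these 8 genes had ACGTG on either strand in at least 1 window. Among all tested genes with a window the share was 28.3% of 10808 genes, and over all 32851 windows of the same length it was 19.6%. The other core, GCGTG, was searched separately on both strands and was more common, in 5 of the same 8 genes and in 54.1% of tested genes. Among the score genes, 5 of 7 with a window held ACGTG and 5 of 7 held GCGTG. The palindrome CACGTG counts as ACGTG on both strands. A match is a description of the letters in the window and not of factor binding.

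The score placed the tumours on a continuous scale without a break at either group's edge. Scores were 0.282 to 2.03 in hypoxia-high tumours with a median of 0.765, and -1.04 to -0.475 in hypoxia-low tumours with a median of -0.666. The last tumour inside the hypoxia-high group (animal 4262) had a score of 0.282, against 0.243 for the first outside it (animal 3273). The last inside the hypoxia-low group (animal 3540) had -0.475, against -0.463 for the first outside it (animal 4461). Animal 4438 stood apart at 2.03, followed by animal 4164 at 1.34. Of the 8 genes, between 4 and 8 lay above the mean of all tumours in each hypoxia-high tumour, and between 0 and 2 in each hypoxia-low tumour.

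**Figure D1:**
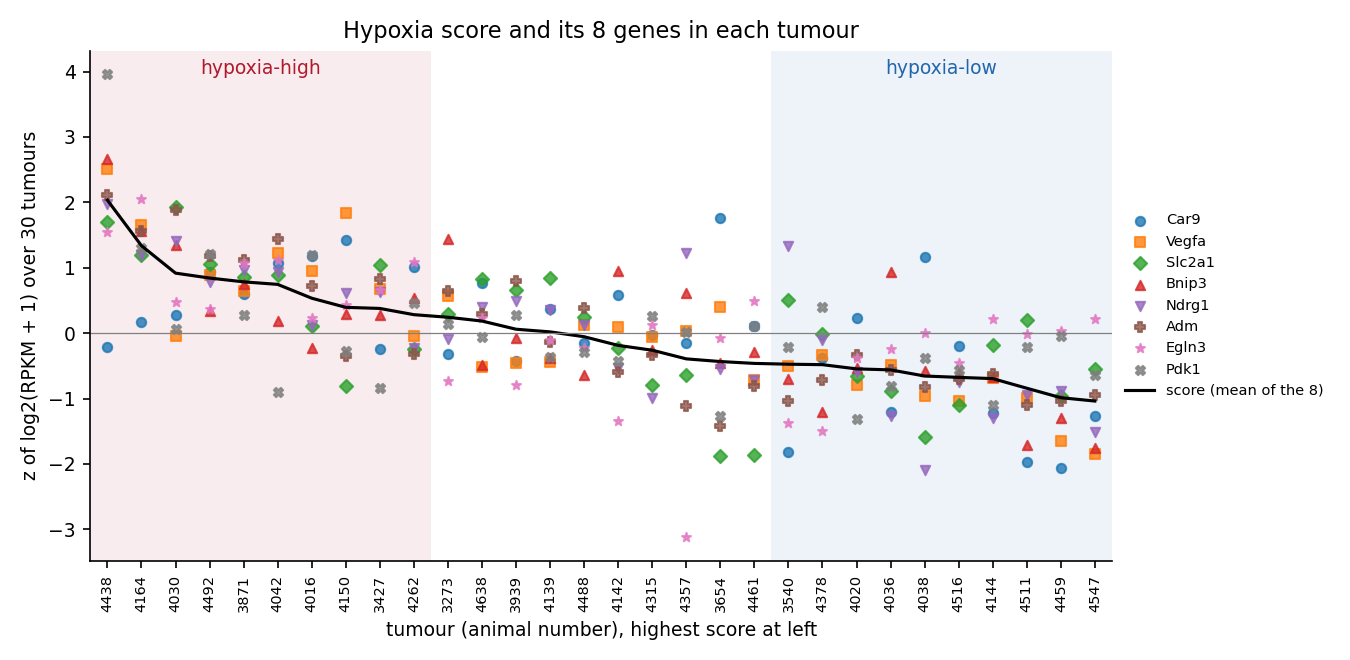
Standardised log2(RPKM + 1) of the 8 score genes (points, vertical axis) in each of the 30 tumours (horizontal axis, by animal number, highest score at left), with the score as a line. The shaded areas are the 10 hypoxia-high tumours, with scores of 0.282 to 2.03, and the 10 hypoxia-low tumours, with scores of -1.04 to -0.475. The points of 1 tumour scatter widely around the line.

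The 8 genes formed the groups, so some separation was built in, and its degree differed between them. Vegfa, the main growth factor for blood vessels, was at 17.3, 30.5 and 75.6 RPKM in hypoxia-high tumours and at 5.65, 10.5 and 14.6 RPKM in hypoxia-low tumours, with no overlap. Egln3, an oxygen-dependent prolyl hydroxylase, also did not overlap, at 61.9, 83.8 and 146 RPKM in hypoxia-high and 27.1, 52.3 and 61.5 RPKM in hypoxia-low tumours. Adm, which encodes the vasodilator peptide adrenomedullin, was at 3.17, 9.58 and 18.2 RPKM in hypoxia-high and 1.63, 2.24 and 3.23 RPKM in hypoxia-low tumours, and 9 of 10 hypoxia-high tumours lay above the highest hypoxia-low tumour.

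The other 5 overlapped more. Car9, a membrane carbonic anhydrase that handles acid outside the cell, was at 11.3, 21.3 and 31.5 RPKM in hypoxia-high and 3.34, 6.08 and 26.8 RPKM in hypoxia-low tumours. Only 2 hypoxia-high tumours exceeded the highest hypoxia-low one for Car9, and its highest value of all was in a tumour of neither group. Ndrg1, a stress-responsive gene, was at 63.3, 119 and 229 RPKM in hypoxia-high and 20.8, 42.0 and 157 RPKM in hypoxia-low tumours.

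Slc2a1, the glucose transporter Glut1, had a median of 65.8 RPKM in hypoxia-high and 36.4 RPKM in hypoxia-low tumours. Bnip3, which takes part in the removal of mitochondria, had a median of 15.3 RPKM in hypoxia-high and 8.96 RPKM in hypoxia-low tumours. Pdk1, a kinase that restrains the use of pyruvate by mitochondria, moved least, with medians of 12.6 RPKM in hypoxia-high and 10.3 RPKM in hypoxia-low tumours. The 28 pairwise correlations of the 8 genes over 30 tumours ran from -0.03 to 0.82 with a median of 0.49, as a description of points that share libraries. The correlation of a gene with the mean of the other 7 was highest for Adm at 0.87 and lowest for Car9 at 0.30. Animal 4438 had the highest value of 5 of the 8 genes but ranked 20 of 30 for Car9.

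Outside the score, 10 of 13602 tested genes differed between the groups and all 10 were higher in hypoxia-high tumours, which is 0.0735% of the genes tested (limma on log2(RPKM + 1), Benjamini-Hochberg adjusted p under 0.05). None was lower, which is 0%. At an unadjusted p under 0.05 there were 943 higher genes (6.93%) and 866 lower genes (6.37%). Among the called genes were those for a lactate exporter, a glycolytic enzyme, a transcription factor, a peptide related to adrenomedullin, a metallothionein, 2 mitochondrial proteins, an ankyrin-repeat protein and a predicted gene, Gm12070, which lies outside the rule for named genes.

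Slc16a3 stood first. It encodes the plasma membrane transporter MCT4, which carries lactate out of cells that ferment glucose. It was at 4.11, 7.43 and 12.6 RPKM in hypoxia-high tumours and at 1.39, 2.08 and 3.69 RPKM in hypoxia-low tumours. Every hypoxia-high tumour lay above every hypoxia-low tumour. The log2 difference was 1.40 ± 0.17 (SE, n = 10 each, adjusted p = 0.000435, limma). It was 1.68 among deep and 1.12 among shallow libraries, and the gene was called when any 1 tumour was left out.

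Glucose metabolism was also represented by Pgam1, the phosphoglycerate mutase of lower glycolysis. Pgam1 was at 94.4, 117 and 163 RPKM in hypoxia-high tumours and at 55.2, 72.3 and 93.4 RPKM in hypoxia-low tumours, a log2 difference of 0.64 ± 0.11 (SE, adjusted p = 0.0439, limma). The groups did not overlap, although copies of Pgam1 with near-identical sequence exist and the share of reads from them is uncertain.

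Both mitochondrial genes were abundant. Fam162a, a mitochondrial protein known as a HIF target, was at 75.3, 109 and 185 RPKM in hypoxia-high and at 58.0, 64.8 and 74.5 RPKM in hypoxia-low tumours, again without overlap (log2 difference 0.74 ± 0.13, SE). Prelid1, which moves phosphatidic acid between mitochondrial membranes, was at 212, 264 and 320 RPKM in hypoxia-high and at 145, 196 and 229 RPKM in hypoxia-low tumours (0.51 ± 0.10), and 9 of 10 hypoxia-high tumours exceeded the highest hypoxia-low one.

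Of the 4 remaining named genes, Ankrd37 and Adm2 are relatives of the pathway by target status or by family. Ankrd37, a HIF target with ankyrin repeats, was at 3.15, 5.42 and 18.1 RPKM in hypoxia-high and at 1.93, 2.23 and 3.39 RPKM in hypoxia-low tumours (1.04 ± 0.20, SE, adjusted p = 0.0488, limma), with the top value in animal 4438. Adm2, which encodes the vasoactive peptide intermedin, was at 0.85, 2.71 and 4.0 RPKM in hypoxia-high and at 0.593, 0.82 and 1.15 RPKM in hypoxia-low tumours (0.85 ± 0.16). In each of these genes 9 of 10 hypoxia-high tumours were above every hypoxia-low tumour.

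Maff, a small Maf transcription factor that lacks an activation domain, was at 2.89, 4.38 and 7.92 RPKM in hypoxia-high and at 1.96, 2.49 and 3.12 RPKM in hypoxia-low tumours (0.69 ± 0.13, SE). Mt1, a zinc-binding metallothionein, was at 238, 422 and 686 RPKM in hypoxia-high and at 95.0, 183 and 362 RPKM in hypoxia-low tumours (1.12 ± 0.22). The groups overlapped for both genes. Of 10 hypoxia-high tumours, 8 exceeded the highest hypoxia-low one for Maff, and 7 did for Mt1.

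**Figure D2:**
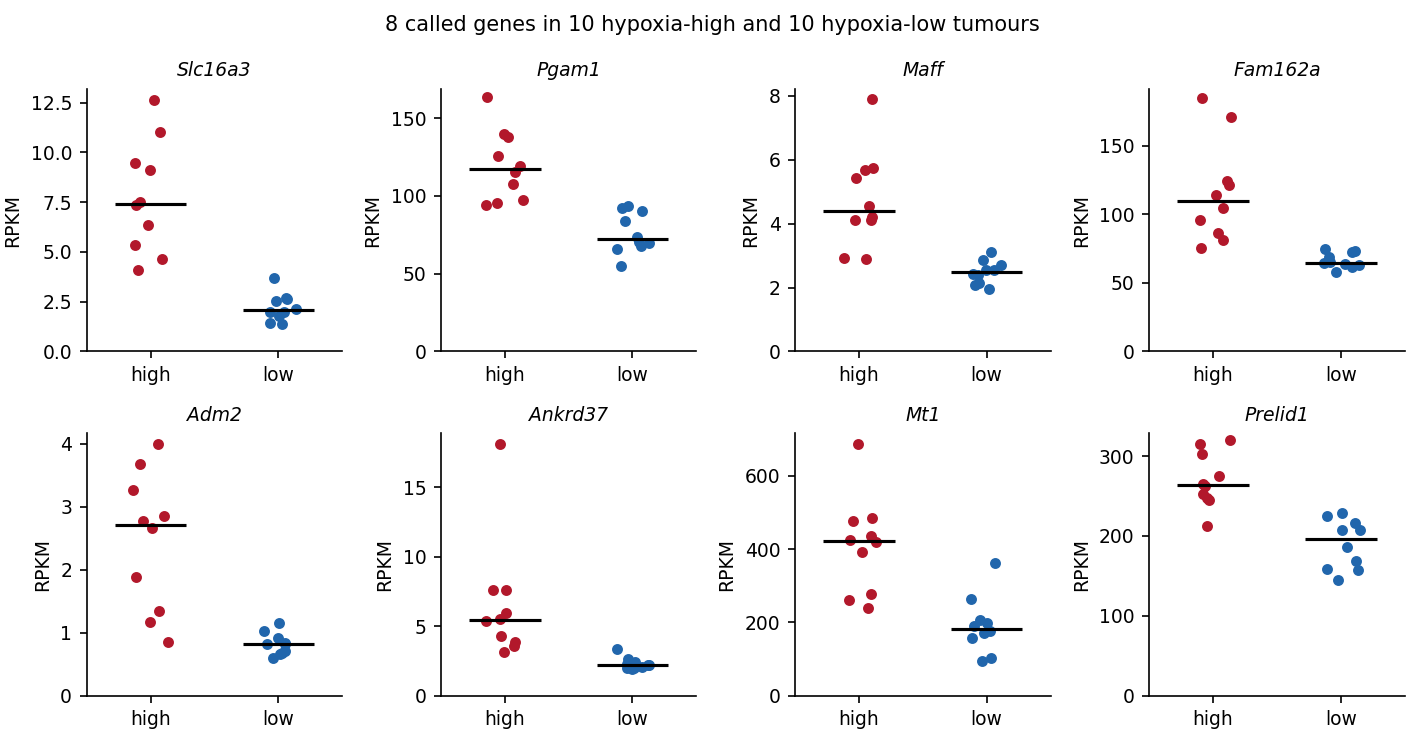
RPKM (vertical axes, from 0) of 8 genes called between the groups, with 1 point per tumour, hypoxia-high at left and hypoxia-low at right, and a bar at the median. Slc16a3, Pgam1 and Fam162a show no overlap, and a single hypoxia-high tumour stands above the others for Ankrd37 at 18.1 RPKM.

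The calls other than Slc16a3 lay close to the threshold. With 1 of the 20 tumours left out, each of the other 7 named genes stayed below an adjusted p of 0.05 in 2 to 6 of 20 fits, and the number of called genes ran from 1 to 30. All 10 genes had a positive difference in the deep and in the shallow libraries. Those libraries are parts of the same 20 tumours that chose the genes, so the shared sign is no separate evidence. The test of whether the difference itself depended on depth class called 0 of 13602 genes with limma, with 364 at an unadjusted p under 0.05.

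The 10 tumours between the groups did not enter the fit that gave these calls. They did enter the standardisation and ranking of the score and the filter on mean RPKM, so a look at them is not fully independent. Within them, 9 of the 10 called genes had a positive slope on the score, against 5794 of 13602 genes tested. The slope of Slc16a3 there was 0.73 ± 0.30 (SE, n = 10, in log2 units for each SD of the score), with values of 2.50 to 9.08 RPKM. The top value was in animal 3273, against 5.31 RPKM in the next (animal 4488). Animal 3273 also had the highest score of these 10 tumours, 0.243, and the highest summed level of skeletal muscle genes. The slope of Slc16a3 without it was not tested. Mt1 had a slope of 1.5 ± 0.35 in the 10 tumours, while Fam162a had -0.07 ± 0.21. No gene passed adjustment in these 10 tumours alone with limma, and 1468 had an unadjusted p under 0.05.

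**Figure D3:**
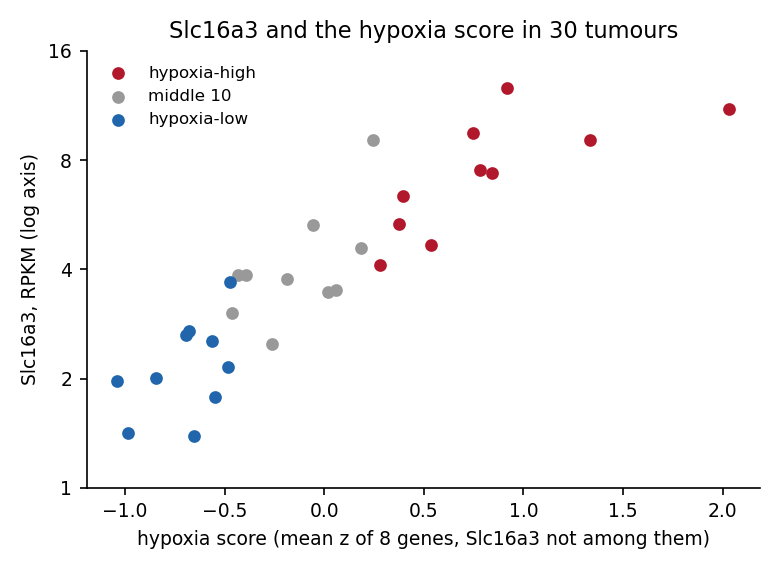
Slc16a3 in RPKM (vertical axis, log scale) against the hypoxia score (horizontal axis) in 30 tumours, 1 point each. Hypoxia-high tumours lie between 4.11 and 12.6 RPKM, hypoxia-low tumours between 1.39 and 3.69 RPKM, and the middle 10 between 2.50 and 9.08 RPKM.

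Regression on the score over all 30 tumours, which shares the score and 20 tumours with the group comparison, gave 42 rising genes (0.309%) and 1 falling gene (0.00735%) at an adjusted p under 0.05 (limma). All 10 genes called between the groups were among the 42. Of the 43, 17 belonged to the glycolysis list or the list of other HIF targets. These lists held 19 and 31 of the 13602 genes tested, and were chosen with earlier results of these data known. Members of the 43 outside the rule for named genes are given here after their values were seen.

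The rising genes of the HIF feedback loop and of known targets were led by Ak4, Ankrd37, Ero1a and Egln1. Ak4, a mitochondrial adenylate kinase, was at 2.69, 5.49 and 18.8 RPKM in hypoxia-high and 1.40, 2.15 and 3.15 RPKM in hypoxia-low tumours, with a slope of 0.57 ± 0.06 log2 units per SD (SE, n = 30). Ero1a, the oxidase that forms disulfide bonds in the endoplasmic reticulum, was at 31.9, 40.5 and 116 RPKM in hypoxia-high and 18.8, 28.1 and 35.1 RPKM in hypoxia-low tumours, with a slope of 0.40 ± 0.05. Animal 4438 held the highest value of both.

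Egln1 encodes the main oxygen-sensing prolyl hydroxylase. It was at 14.2, 16 and 26 RPKM in hypoxia-high and at 9.39, 12.3 and 13.5 RPKM in hypoxia-low tumours, without overlap, and its slope was 0.24 ± 0.03 (SE). Between the groups its adjusted p was 0.054 (limma), just above the threshold. The other parts of the sensing machinery did not pass either test. Hif1a was at 14.9, 28.4 and 41.0 RPKM in hypoxia-high and 26.7, 29.8 and 34.8 RPKM in hypoxia-low tumours, a log2 difference of -0.14 ± 0.13.

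Epas1, which encodes HIF-2 alpha, differed by -0.17 ± 0.21 and Vhl by 0.11 ± 0.08 log2 units (SE, high minus low). HIF alpha subunits are controlled mainly at the protein level, which these data do not measure. In the whole oxygen sensing list, 0 of 12 tested genes were called with limma and 3 were higher at an unadjusted p under 0.05, namely Egln1, Cited2 and Siah2, beside 6.93% of all genes. The median difference of the list was -0.06, against -0.003 over all genes.

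The glycolysis list held 19 tested genes of 20, without the score genes. Of these, 2 were called higher (Slc16a3 and Pgam1), beside 0.0735% of all genes. At an unadjusted p under 0.05, 10 were higher and 0 lower, beside 6.93% and 6.37% of all genes, and the median difference was 0.37. On the score over 30 tumours 8 of the 19 rose, beside 0.309% of all genes. These 8 genes cover much of the lower pathway, from Tpi1 through Gapdh, Pgk1 and Pgam1 to Eno1, with Gpi1 and Pfkp above it and Slc16a3 at the exit.

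Pgk1, the first enzyme of glycolysis to yield ATP, was at 95.2, 135 and 288 RPKM in hypoxia-high and 72.6, 85.4 and 113 RPKM in hypoxia-low tumours, and its slope was 0.36 ± 0.05 (SE). Gapdh, often used as a constant reference gene, was at 204, 339 and 567 RPKM in hypoxia-high and 132, 220 and 296 RPKM in hypoxia-low tumours, and its slope was 0.30 ± 0.07. Tpi1, the triose phosphate isomerase, was at 194, 295 and 394 RPKM in hypoxia-high and 166, 216 and 247 RPKM in hypoxia-low tumours. For each of these 3 genes 7 or 8 hypoxia-high tumours lay above the highest hypoxia-low one. Gapdh and Eno1 have near-identical copies elsewhere in the genome, and Eno1 and Eno1b gave nearly the same values, so their reads cannot be assigned to 1 copy with certainty.

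Other steps did not pass. Ldha, the lactate dehydrogenase subunit that makes lactate, was at 406, 733 and 1042 RPKM in hypoxia-high and 369, 579 and 856 RPKM in hypoxia-low tumours, a log2 difference of 0.27 ± 0.17 (SE), and it was -0.01 among shallow libraries. Pkm, the pyruvate kinase, differed by 0.19 ± 0.13 and by -0.09 among shallow libraries. The hexokinase Hk1 differed by -0.17 ± 0.17 and the muscle-type phosphofructokinase Pfkm by -0.34 ± 0.18.

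**Figure D4:**
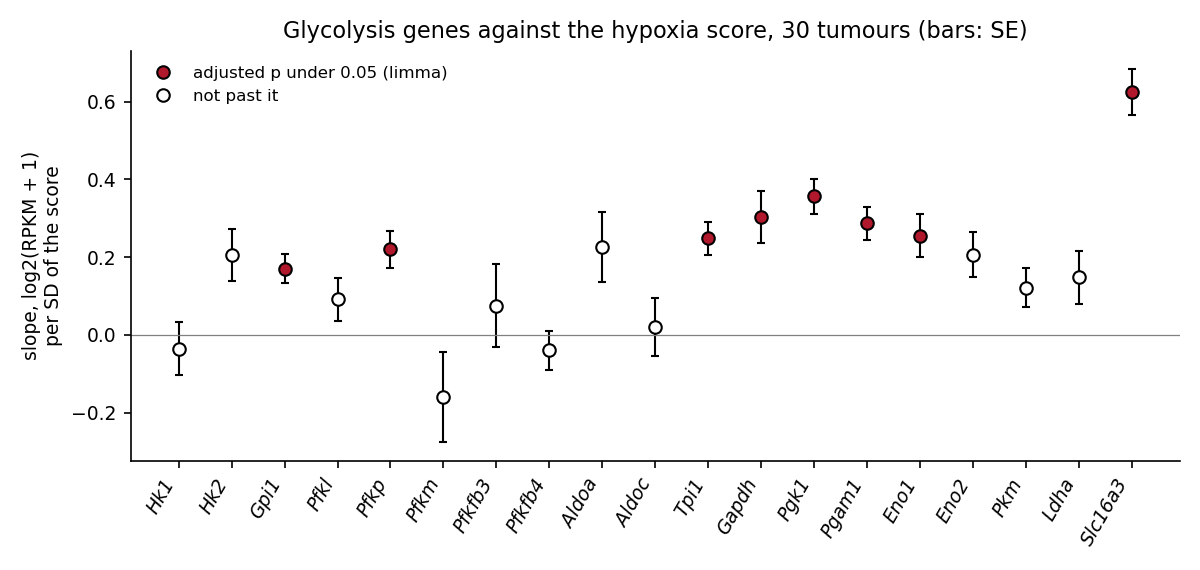
Slope of log2(RPKM + 1) per SD of the hypoxia score over 30 tumours (vertical axis) for the 19 tested glycolysis genes in pathway order (horizontal axis), with bars for the SE. The 8 filled points passed an adjusted p of 0.05, and Slc16a3 had the steepest slope of the 19 at 0.63.

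Among other HIF targets, 31 of 33 listed genes were tested, and 2 were called (Fam162a and Ankrd37), beside 0.0735% of all genes. At an unadjusted p under 0.05, 15 were higher and 0 lower, beside 6.93% and 6.37% of all genes, and the median difference was 0.33. On the score 9 of the 31 rose, beside 0.309% of all genes. Beside those above they included Bhlhe40, a circadian and hypoxia-responsive repressor (slope 0.29 ± 0.05, SE), Higd1a, a mitochondrial protein (0.26 ± 0.05), and Bnip3l, a relative of Bnip3 (0.18 ± 0.04).

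Collagen-modifying enzymes were split. Of 11 tested genes of that list 2 rose on the score, beside 0.309% of all genes, and the median difference was 0.003. The 2 were P4ha1 and P4ha2, catalytic subunits of collagen prolyl 4-hydroxylase, which are also in the list of other HIF targets. Their slopes were 0.29 ± 0.05 and 0.39 ± 0.07 log2 units per SD (SE). Among 9 tested genes for pH and lactate, 1 was called, beside 0.0735% of all genes, and 2 rose on the score, beside 0.309%. The called gene was Slc16a3, which is also in the glycolysis list. The other rising gene was Bsg, the chaperone of the lactate transporters (0.24 ± 0.05). In this list 5 of the 9 differences were below 0, and the median was -0.04. Bsg was at 311, 463 and 682 RPKM in hypoxia-high and 252, 300 and 400 RPKM in hypoxia-low tumours.

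Other rising genes, picked after their values were seen, included a keratin and 2 kallikrein-related peptidases. Krt17, a keratin of stressed and basal epithelium, was at 22.4, 45.1 and 68.7 RPKM in hypoxia-high and 8.11, 15.7 and 45.1 RPKM in hypoxia-low tumours, with a slope of 0.57 ± 0.11 (SE). In the basal list that holds Krt17, 7 of the 11 tested genes had differences below 0, the median was -0.17, and at an unadjusted p under 0.05 Krt17 was the only higher and Myh11 the only lower gene. Klk10, a secreted kallikrein-related peptidase, was at 4.25, 20.3 and 56.5 RPKM in hypoxia-high and 0.445, 4.10 and 12.4 RPKM in hypoxia-low tumours, with a slope of 0.89 ± 0.19. Klk6, of the same family, rose by 0.91 ± 0.18. Of the 7 tested keratinised genes, 0 were called with limma in either test. At an unadjusted p under 0.05, 4 were higher, beside 6.93% of all genes, and all 7 differences were positive with a median of 0.79. The count was 2 without any 1 of animals 3427, 3871, 4438, 3540 or 4511, and 1 with the adipocyte, stroma or proliferation score as covariate.

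Igfbp3 and Gja1 were also among the 42. Igfbp3, which binds insulin-like growth factors, was at 14.6, 37.5 and 61.6 RPKM in hypoxia-high and 9.09, 15 and 29.5 RPKM in hypoxia-low tumours. Gja1, the gap junction protein connexin 43, was at 27.2, 48.4 and 75.4 RPKM in hypoxia-high and 16.2, 27.4 and 41.6 RPKM in hypoxia-low tumours. Hbegf, a ligand of the EGF receptor, rose by 0.27 ± 0.06 and Mmp12, a macrophage elastase, by 0.54 ± 0.12 log2 units per SD (SE). The falling gene was Spon1, an extracellular matrix protein, at 3.02, 8.28 and 12.3 RPKM in hypoxia-high and 8.03, 12.7 and 27 RPKM in hypoxia-low tumours, with a slope of -0.31 ± 0.07.

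Prodh, Eif4ebp1 and Stra6, again picked after their values were seen, were also among the 42. Prodh, the mitochondrial enzyme that starts proline breakdown, was at 8.34, 9.40 and 30.6 RPKM in hypoxia-high and 4.25, 7.65 and 12.1 RPKM in hypoxia-low tumours, with a slope of 0.35 ± 0.07 (SE). Eif4ebp1, an inhibitor of cap-dependent translation that mTOR controls, was at 51.2, 64.2 and 84.7 RPKM in hypoxia-high and 30.2, 44.9 and 56.3 RPKM in hypoxia-low tumours. Stra6, a receptor for retinol uptake, was at 1.38, 6.31 and 34.7 RPKM in hypoxia-high and 1.11, 2.36 and 3.13 RPKM in hypoxia-low tumours. Prodh overlapped widely and its top value was in animal 4438, while 7 hypoxia-high tumours exceeded the highest hypoxia-low one for Eif4ebp1 and for Stra6.

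Vessel-related genes were mixed. Of 12 tested angiogenic factors 0 were called with limma, and 4 were higher and 1 lower at an unadjusted p under 0.05, beside 6.93% and 6.37% of all genes. The 4 became 2 without animal 4030, 4459 or 4547 and 1 without animals 4438 and 4164, and the lower gene was lost without animal 4438, 4036, 4038 or 4144. Apln, a ligand for vessel growth, was at 4.11, 12.1 and 23.5 RPKM in hypoxia-high and 1.60, 5.68 and 14.1 RPKM in hypoxia-low tumours, and its receptor Aplnr at 0.986, 3.51 and 5.98 RPKM in hypoxia-high and 4.21, 5.29 and 8.70 RPKM in hypoxia-low tumours. Of 17 endothelial genes 0 were called with limma, 0 were higher and 2 lower at that p, beside 6.93% and 6.37% of all genes. Their median difference was -0.17, -0.10 without animal 4036, and turned to 0.03 with the adipocyte score and 0.02 with the stroma or proliferation score as covariate. The 2 lower genes became 5 without animal 3427 or 4459 and 4 without animal 3871. In bulk tissue fewer cells of a type and less RNA per cell cannot be told apart.

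Adipocyte markers moved with the groups. All 11 tested adipocyte genes were lower in hypoxia-high tumours at an unadjusted p under 0.05, beside 6.37% of all genes, none passed adjustment with limma, and the median difference was -1.49. Their summed level was 77.0, 113 and 551 RPKM in hypoxia-high and 95.0, 436 and 3676 RPKM in hypoxia-low tumours. Adipoq, the fat cell hormone adiponectin, was at 1.12, 2.71 and 11.4 RPKM in hypoxia-high and 2.48, 10.1 and 126 RPKM in hypoxia-low tumours, above 0 in all 20. With the adipocyte score as a covariate, 10 of 19 glycolysis genes and 16 of 31 other HIF targets were higher at that p, of which 9 and 13 were also higher without the covariate. The count over all genes was 304, and Slc16a3 was the only gene called.

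Stromal matrix genes leaned lower, with 0 of 19 called with limma, 7 lower at an unadjusted p under 0.05, beside 6.37% of all genes, and a median difference of -0.55. Their summed level was 460, 1396 and 1955 RPKM in hypoxia-high and 924, 1677 and 7750 RPKM in hypoxia-low tumours, and the top value belonged to animal 4036. Without animal 4036 the median difference was -0.31 and 5 were lower, and without animals 4438 and 4164 it was -0.37 and 2 were lower. Without animal 4438 alone 3 were lower, and without animal 4150 4 were. With the adipocyte score as covariate the median was 0.01 and 0 were lower. Of 7 genes of MHC class II, 3 were lower at that p with a median difference of -0.50, and the count ran from 0 (without animal 4036, 4144, 4150, 4378 or 4438) to 7 (without animal 4459). In deep libraries alone 0 of the 7 were lower, with a median of -0.12. In shallow libraries alone 6 were lower, with a median of -0.87, beside 369 of 13602 genes.

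Among the 15 macrophage genes 1 was lower at that p, Lyz2, which is near the 6.37% of all genes. Their median difference was -0.17, against -0.06 without animals 4438 and 4164 and -0.01 with the adipocyte score as covariate, and 4 were lower without animal 3427. Of 8 tested neutrophil genes 2 were higher at that p, beside 6.93% of all genes, with a median of 0.28, and the count ran from 1 (without animal 4150 or 4511) to 4 (without animal 4492 or 4378). All 14 skeletal muscle genes had lower means in hypoxia-high tumours, with a median difference of -1.02, and 0 passed an unadjusted p under 0.05. That median was 0.08 among deep and -2.02 among shallow libraries. The summed muscle level was 37.5, 123 and 3357 RPKM in hypoxia-high and 32.1, 271 and 3813 RPKM in hypoxia-low tumours, a wide overlap. The part of these cell types in the genes above was not tested beyond the covariate fits.

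Growth-related lists leaned upward without a call. Of 30 proliferation genes 7 were higher at an unadjusted p under 0.05 beside 6.93% of all genes, and all 30 differences were positive, with a median of 0.24 and 0 called with limma. The count was 2 without animal 4020 or 4036, 4 without animal 4030, 4164, 4144 or 4378, 15 without animal 4547 and 20 without animal 4459, and it was 1 with the adipocyte or stroma score as covariate. Ube2c, a ubiquitin-conjugating enzyme of mitosis, was at 76.8, 98.8 and 171 RPKM in hypoxia-high and 41.1, 67.9 and 118 RPKM in hypoxia-low tumours. Of 14 ribosomal protein genes 8 were higher at that p with a median of 0.25, but the median was 0.05 and 0 were higher after quantile normalization. That count was 3 without animal 4036, 4150 or 4378, ran up to 10 without animal 4547, and was 2 without animals 4438 and 4164 and 1 with the adipocyte score as covariate. Oxidative phosphorylation genes, 25 tested, had 1 higher and a median of 0.11, which was -0.02 after quantile normalization, and up to 6 were higher with 1 tumour left out.

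Stress lists gave 6 of 14 immediate early genes and 5 of 17 amino-acid stress genes higher at an unadjusted p under 0.05, beside 6.93% of all genes, with medians of 0.20 and 0.21 and 0 called with limma in either. The immediate early count was 3 without animal 4042, 4164, 4492 or 4547 and 2 with the adipocyte score as covariate. Junb, an AP-1 subunit, was at 25.1, 38.9 and 79.6 RPKM in hypoxia-high and 16.9, 27.4 and 32.0 RPKM in hypoxia-low tumours. Atf5, a transcription factor of the integrated stress response, was at 20.6, 31.8 and 40.3 RPKM in hypoxia-high and 14.2, 20.9 and 29.8 RPKM in hypoxia-low tumours. Mt2, the partner of Mt1 in the metallothionein list, was at 44.9, 200 and 287 RPKM in hypoxia-high and 17.5, 60.9 and 171 RPKM in hypoxia-low tumours, with an adjusted p of 0.0699 (limma). The lists for the unfolded protein response, apoptosis and autophagy, T cells, B cells, pericytes and erythroid cells had at most 1 gene past an unadjusted p of 0.05. Of the other lists, 2 of 13 luminal genes were higher and 2 lower, 2 of 9 glycogen genes were higher and 2 of 18 cholesterol synthesis genes were higher, beside 6.93% higher and 6.37% lower over all genes. The lists for milk, the TCA cycle, interferon and mesenchymal regulators had at most 1 in either direction. In deep libraries alone 5 of 10 milk genes were higher at that p with a median of 1.13, beside 511 of 13602 genes. In shallow libraries alone 0 milk genes were higher and the median was -0.49. The interferon median was 0.20 in deep and -0.54 in shallow libraries.

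**Figure D5:**
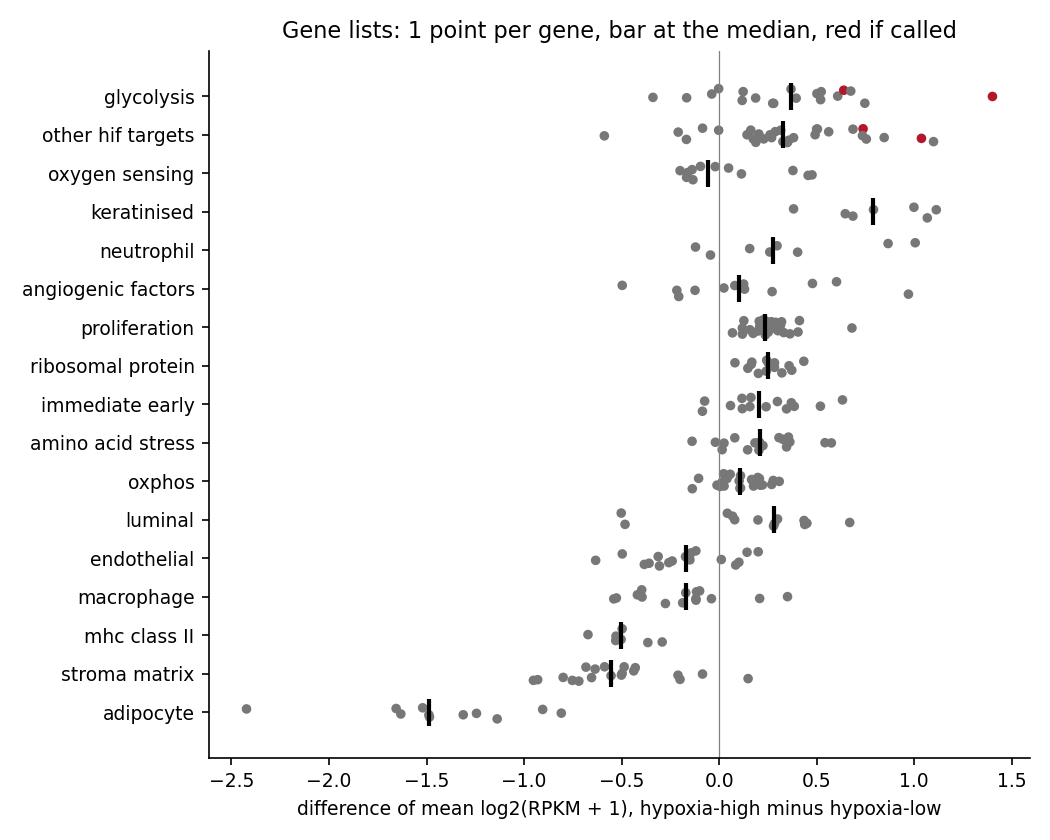
Difference of mean log2(RPKM + 1), hypoxia-high minus hypoxia-low (horizontal axis), for the genes of 17 lists (vertical axis), with 1 point per gene, a bar at the median and called genes in red. The medians run from -1.49 for adipocyte genes to 0.79 for keratinised genes, and the 4 red points are in the glycolysis and other HIF target lists.

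Since the score and all other genes were measured in the same libraries, variation that a library shares between them enters both sides of each comparison. Each group holds 10 animals of 1 cross. The SE of a difference or slope is the precision of a limma estimate from these animals, with variance partly borrowed from other genes.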

How the data were processed

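RNA of 30 tumours was poly-A selected and sequenced (source: the labels' protocols). The deposited table gives RPKM for 27902 RefSeq transcripts; this unit was inferred from the values. Per the submitters' processing notes, CASAVA 1.7.0 was used; alignment settings, build and annotation release were not given in the sources used here. No column was left out. Names came from RefSeq on GRCm38.p6 (26490) and GENCODE vM21 (154); 1258, with 1.94% of RPKM, stayed unnamed, and 696 small RNA rows were dropped. The transcript with the highest mean stood for each of 20845 genes. Depth came from the steps of low values; 68.7 to 79.2% lay within 0.12 of a whole read, against 24% by chance, too few for a count test.

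The tests ran on log2(RPKM + 1), a scale that shrinks differences of genes near 0. They covered 13602 genes that averaged 1 RPKM or more over 30 tumours, without the 8 score genes. limma 3.58.1 in R 4.3.3 (empirical Bayes with trend, two-sided, Benjamini-Hochberg over all tested genes, threshold 0.05) compared the groups, tested the interaction with depth class and fitted the slope on the score. It was also run on simulated data with known differences, in which genes were independent and groups were not cut on a score. Plots used matplotlib 3.10.9 in Python 3.11.15. The 34 lists (488 entries) received counts and medians only. Named genes were the score genes, the called genes in order of adjusted p, and for each list the most abundant member and the members with the largest and smallest moderated t, with Hif1a, Epas1, Vhl and Egln1. Predicted genes were passed over, 1 called gene is not reported here, and other genes were chosen after their values were seen. Groups, members and lists were chosen with earlier results of these data known.

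Alternatives were another pseudocount (0.1), filter and scaling, insert size, depth class and list scores as covariates, deep or shallow libraries alone, other group sizes, scores without 1 gene or from ranks, and each tumour left out. Leaving out animals 4438 and 4164, the adipocyte covariate and all alternatives of the slope were added after seeing the data.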

Additional observations from a re-analysis of the deposited data

Results flagged for a closer look

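Of 154 groups of 10 values, 14 held a tumour farther from the rest than Dixon's 95% critical value allows. The gap ratio was the gap to the next tumour divided by the whole range, on log2(RPKM + 1). For independent normal values chance flags about 1 in 20 groups. That rate is no benchmark here, because the groups were cut on the score and the genes share the same tumours. Flags on score genes are a description only. Animal 4438, the tumour with the highest score, accounted for 7 of the 14. It was the highest hypoxia-high tumour for Pdk1 (gap ratio 0.549, 29 against 15.7 RPKM for the next), Ankrd37 (0.521, 18.1 against 7.61 RPKM), Ak4 (0.4662, 18.8 against 8.05 RPKM), Ero1a (0.605, 116 against 53.4 RPKM), Bnip3l (0.65, 54.4 against 30.5 RPKM) and Cstdc5, a stefin-type protease inhibitor gene (0.632, 66.8 against 4.86 RPKM). It was the lowest hypoxia-high tumour for Spon1 (0.585, 3.02 against 7.09 RPKM).

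Animal 4150 was the lowest hypoxia-high tumour for Pkm (gap ratio 0.653, 338 against 589 RPKM) and the highest for Rpl32 (0.529, 3170 against 1934 RPKM). Animal 4042 was the highest hypoxia-high tumour for Junb (0.517, 79.6 against 44.0 RPKM). Among hypoxia-low tumours, animal 4036 was the highest for Bnip3 (0.546, 19.4 against 9.65 RPKM) and Col1a1 (0.536, 1718 against 497 RPKM). Animal 4547 was the highest hypoxia-low tumour for Gpi1 (0.474, 219 against 182 RPKM), and animal 4459 the lowest for Cd74 (0.518, 111 against 247 RPKM).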

How the results depend on the processing

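The count of 10 genes between hypoxia-high and hypoxia-low tumours depended on the settings. It was 3 without a filter (2 higher, 1 lower), 0 at a mean of at least 5 RPKM (where Slc16a3 is not tested), 6 with quantile normalization, 6 with median ratio scaling, 2 in deep and 0 in shallow libraries alone. It was 2 with the stroma score, 2 with the proliferation score and 1 with the adipocyte score as covariate. These counts are not all of the same genes. Of the 10 genes, 1 stayed called without a filter, 1 in deep libraries and 1 with each of these 3 scores. With quantile normalization 6 of the 10 stayed called, and with median ratio scaling 6 did. With 8 tumours a group it was 5, with 15 a group 59 (42 higher, 17 lower), on the score over 30 tumours 43 (42 higher, 1 lower) and without animals 4438 and 4164 it was 2. A score without Adm gave 4, without Car9 7, without Egln3 16 (2 lower), without Pdk1 6 and from ranks 1, and 1 gene was lower without Bnip3. Of the 10 genes, 3 stayed called without Car9, 3 without Pdk1, 4 without Adm and 1 from ranks. The number was 6 without Egln3, 6 without Vegfa, 7 without Bnip3, 8 without Ndrg1 and 10 without Slc2a1. Leaving out 1 tumour gave 1 to 30 called genes, 1 to 28 higher and 0 to 2 lower. The slope over 30 tumours called 1 gene (1 higher, 0 lower) in deep and 11 (11 higher, 0 lower) in shallow libraries, 27 (27 higher, 0 lower) with the proliferation score and 17 (16 higher) without animals 4438 and 4164. Falling genes numbered 3 with a pseudocount of 0.1, 3 without a filter, 2 with insert size, 2 with depth class, 4 with the stroma score and 3 with the adipocyte score. Leaving out 1 tumour gave 30 to 57 called, 28 to 48 higher and 1 to 15 lower, with 15 lower without animal 4438. Of the 42 rising genes, 28 rose again without animal 4438 and 13 without animals 4438 and 4164. All 42 had positive differences in deep and in shallow libraries, which are parts of the tumours that chose them. Slc16a3 was called in 45 of 46 settings that tested it, the exception being shallow libraries alone. The 8 named called genes kept their call in 148 of 372 fits and reversed in 0. Of 69 named genes 4 reversed: Ldha (-0.0142) and Pkm (-0.0902) in shallow libraries, Col1a1 with the stroma (0.0571) and adipocyte (0.0756) scores, and Epas1 in deep libraries (0.111), with the stroma (0.165), proliferation (0.0633) and adipocyte (0.203) scores, and with a score without Car9 (0.123), Egln3 (0.0392) or Pdk1 (0.0248). Fewer tumours enter the fits on deep or shallow libraries; for the rest the cause was not tested. Whether depth limited genes of low level in the shallow libraries was not tested. No paired analysis was possible because each animal gave 1 tumour.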
